A study of Bos taurus with 7 samples.

Results

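The genes of the proteasome were followed in bovine primary follicles (PF) and secondary follicles (SF). Members were chosen by symbol alone, as genes named *PSMA*, *PSMB*, *PSMC* or *PSMD* followed by digits only, plus *PSME1* to *PSME4*. This gave 43 of the 23704 genes that had a matched RefSeq transcript. There were 4 PF and 3 SF libraries, and each was made from pooled intact follicles, in which oocyte and granulosa RNA are not separated. By the study's methods, follicles were isolated mechanically from ovaries of young Holstein Friesian dairy cows taken at an abattoir, sorted by strainer and morphology, and kept for a short recovery in medium with insulin, transferrin, selenium and FSH before lysis. The stages differ in their granulosa, which is cuboidal and a single cell deep in PF and stacked in SF. No animal or follicle carried a treatment or an altered gene. The sources used here do not say which animals gave the follicles of a library. The p-values therefore reflect only how much these libraries vary, and that variation may be technical.

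The proteasome is the main protease of the cytosol and nucleus for proteins tagged with ubiquitin. Its barrel, the 20S core, is built of alpha rings around beta rings, and 3 kinds of beta subunit carry the cutting sites. The 19S regulatory particle caps the barrel, with a ring of ATPases that unfold the substrate and a set of other subunits that bind ubiquitin and remove it. Cells exposed to interferon exchange the 3 cutting subunits for immune versions, which favour peptides for antigen presentation. In the ovary, oocytes store large amounts of maternal protein and RNA, and the ubiquitin-proteasome system is known for its role in meiosis and the turnover of maternal proteins.

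The members fell into 14 constitutive core genes, 17 genes of the regulatory particle, 4 genes of the immune and thymic catalytic subunits, 4 activators, 3 assembly chaperones that carry *PSMD* symbols, and the germ cell alpha subunit *PSMA8*. Levels are given in TPM, an abundance corrected for transcript length, so that they can be compared between genes. Unless stated otherwise, means ± SD are over n = 3 libraries a group, without PF replicate 4. Each fold change is a DESeq2 estimate of log2(SF/PF) ± SE. Library totals ran from 18788105 to 23764615 estimated counts. The members together took 89088 to 144059 of these counts and 0.554% to 0.887% of the TPM of a library. Of the 43 genes, 39 stood above 10 TPM in each of the 7 libraries, and the median over the members of the mean level was 145 TPM, against 11.7 TPM over all genes tested. The 4 others were *PSMA8*, *PSMB8*, *PSMB11* and *PSME4*.

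**Figure D1:**
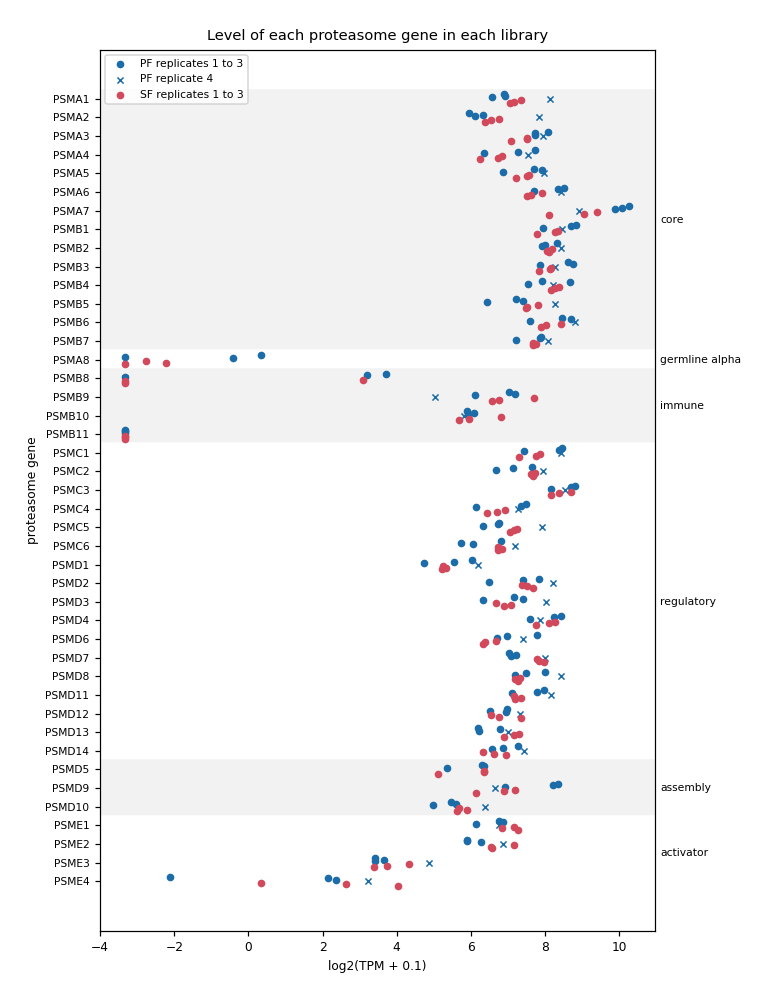
Level of each of the 43 proteasome genes, as log2(TPM + 0.1) on the horizontal axis, in each library, grouped by role. Blue circles are PF replicates 1 to 3, blue crosses PF replicate 4 and red circles SF replicates 1 to 3. Genes listed at 0 TPM lie at the left edge. *PSMA7* lies to the right of all other members in PF replicates 1 to 3.

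The libraries differed in the levels of cell type markers. The summed level of 17 oocyte markers was 2651 to 5237 TPM in PF replicates 1 to 3 and 241 to 1851 TPM in SF, and 14 of the 17 genes were called lower in SF. The sum of 15 granulosa markers was 1142 to 1847 TPM in PF replicates 1 to 3 and 3066 to 4125 TPM in SF, with 8 of 14 tested genes called higher. Of all genes tested, 11% were called lower and 8.14% higher. *INHA* was the largest part of the granulosa sum in each library (481 to 1836 TPM), and *FOXL2* was not called (DESeq2 adjusted p = 0.21). No marker of either list was at 0 in all libraries. In PF replicate 4, the oocyte sum was 505 TPM, and 8 stromal fibroblast markers summed to 5843 TPM against 215 to 610 TPM in the other 6 libraries. *DCN* made up most of the sum in those 6 libraries (145 to 573 TPM) and was at 168 TPM in PF replicate 4. *COL1A1*, *COL1A2*, *COL3A1*, *LUM* and *PDGFRA* were highest in PF replicate 4, with *COL1A2* at 2762 TPM against 4.27 to 21.3 TPM elsewhere. *TCF21* and *MFAP5* were not highest there. The 5 smooth muscle and pericyte markers summed to 63.5 to 125 TPM in PF replicates 1 to 3, 169 to 236 TPM in SF and 991 TPM in PF replicate 4, with *MYH11* called higher, and the 4 surface epithelium markers overlapped between the groups with *KRT19* called lower. With whole follicles pooled, fewer cells of a type and less RNA per cell cannot be told apart.

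Few proteasome genes passed the test between the stages. Of the 41 members tested, DESeq2 called 3 higher in SF (*PSMC5*, *PSMD7* and *PSMD13*, all of the regulatory particle) and 1 lower (*PSMA7* of the core), while 37 did not pass. This was 9.76% of the members, against 19.1% of the 15056 genes tested, with 8.14% of all genes called higher and 11% lower. The median log2 fold change was 0.09 over the 41 members and 0.02 over all genes tested. Fits for 24 members lay above 0 and for 17 below 0. Among the 37 members without a call, the 95% interval of the fold change lay within a factor of 2 in either direction for 20, 10 of them in the core and 9 in the regulatory particle. For the other 17 the interval reached beyond a factor of 2. *PSMB11* had no count and *PSMA8* too few for an adjusted p.

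The 4 calls depended on the test and on the libraries. The quasi-likelihood test of edgeR called 0 genes of the whole table, with 3844 genes at an unadjusted p below 0.05 against 4800 in DESeq2, and its robust form called 260. Limma called 792 genes on log2(TPM + 1), 2 on log2(TPM + 0.1) and 0 on log2(TPM + 1) without a filter. No member was called in any of these 5 fits. With PF replicate 4 kept, DESeq2 called 858 genes and again no member. The TPM of the 3 SF libraries did not overlap with those of PF replicates 1 to 3 for 11 members (26.8%), 8 higher and 3 lower, against 32.7% of all genes tested (14.3% higher and 18.5% lower).

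**Figure D2:**
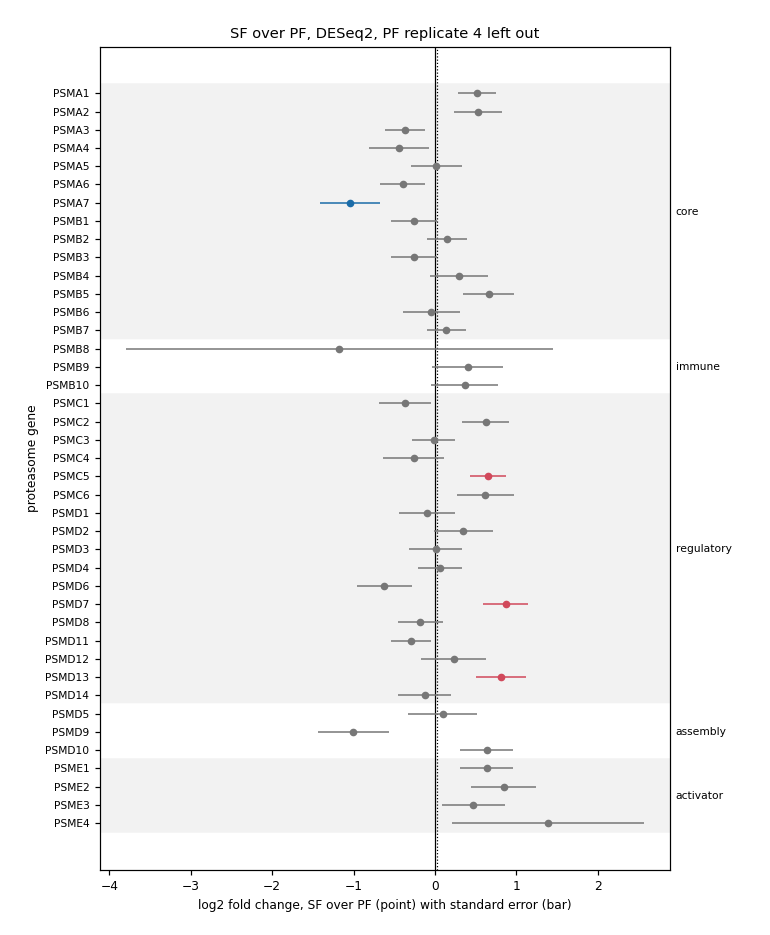
DESeq2 log2 fold change of SF over PF (points) with its standard error (bars) for the 41 members tested, grouped by role, with PF replicate 4 left out (n = 3 a group). Red marks the members called higher, blue the member called lower and grey those without a call, and the dotted line is the median of all genes tested (0.02). Most points lie within 1 unit of 0. Among the called members *PSMA7* is lowest (-1.04) and *PSMD7* highest (0.87). The lowest and highest of all points are *PSMB8* (-1.17 ± 2.62) and *PSME4* (1.39 ± 1.18), both without a call.

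Among the alpha subunits, which form the outer rings of the barrel and its gate, *PSMA7* stood apart. Its level was 1240.2, 1082 and 955 TPM in PF replicates 1 to 3, 488 TPM in PF replicate 4, and 679.8, 534 and 275 TPM in the SF libraries. All SF libraries lay below PF replicates 1 to 3, and PF replicate 4 lay within the SF range. Mean levels were 1092 ± 143 TPM in PF and 496 ± 205 TPM in SF, and the fall fitted to the counts by DESeq2 was 2.06-fold (-1.04 ± 0.37, with an adjusted p of 0.03). Leaving out any of PF replicates 1 to 3, or SF replicate 2, ended the call (DESeq2 adjusted p = 0.11, 0.091, 0.054 and 0.13), as did TMM factors (0.059) and keeping PF replicate 4 (0.23). The fitted difference was -1.09 to -1.03 in the former 4 fits, -0.97 with TMM factors and -0.87 with PF replicate 4. Within library numbers below 40 the log2 difference of mean TPM was -0.77, and above 40 it was -1.24 (PF replicate 3 against SF replicates 2 and 3). The library number is the number in the library's name, which the labels do not explain.

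*PSMA7* was also the most abundant member, at rank 154 of the 23704 genes by mean TPM over all libraries. In the assembled particle each alpha ring holds a single copy of each alpha subunit, yet the transcripts were not even. The level of *PSMA7* was 6.34 ± 0.857 times the mean of *PSMA1* to *PSMA6* in PF replicates 1 to 3 (5.70 to 7.32) and 3.27 ± 0.988 times in SF (2.17 to 4.09), with 1.91 in PF replicate 4. These ratios within a library do not depend on the scaling between libraries. The 6 other alpha genes lay between 61.9 and 367 TPM in PF replicates 1 to 3 and SF, and none was called (DESeq2 adjusted p = 0.11 to 0.98). *PSMA1* and *PSMA2* had fits above 0 (0.52 ± 0.24 and 0.53 ± 0.30) and SF levels that did not overlap with PF replicates 1 to 3, whereas *PSMA3* lay lower in SF without overlap (-0.37 ± 0.25).

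The libraries had the same order by *PSMA7* as by the summed oocyte markers, from PF replicate 1 at the top through PF replicates 2 and 3, SF replicates 1 and 2 and PF replicate 4 to SF replicate 3. By themselves *BMP15*, *ZP3*, *DDX4* and *FIGLA* had this order, and the other oocyte markers did not. *ZP3* was the largest part of the sum in each library (77.6 to 1809 TPM) and was not called (DESeq2 adjusted p = 0.17). From SF replicate 2 to PF replicate 4 the sum went from 1410 to 505 TPM, and *PSMA7* from 534 to 488 TPM. The shared order of the libraries was noticed after the values were seen. It held for *PSMA7* alone among the 41 members tested, and for 232 (1.54%) of the 15056 genes. The part of the oocyte markers in the *PSMA7* difference was not tested. Scaled by the oocyte markers, *PSMA7* turned to 1.27 with no call (DESeq2 adjusted p = 0.15), while the median of all genes moved to 2.62, so that *PSMA7* stayed below it.

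The germ cell subunit *PSMA8*, which takes the place of *PSMA7* in the testis, was at or near 0. It had 21 estimated counts in PF replicate 1, 12 in PF replicate 3, 1 in SF replicate 1, 2 in SF replicate 2 and 0 in the other libraries, at most 1.17 TPM. Reads of closely related copies can be exchanged in the quantification, so these counts are uncertain, and no comparison was made.

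**Figure D3:**
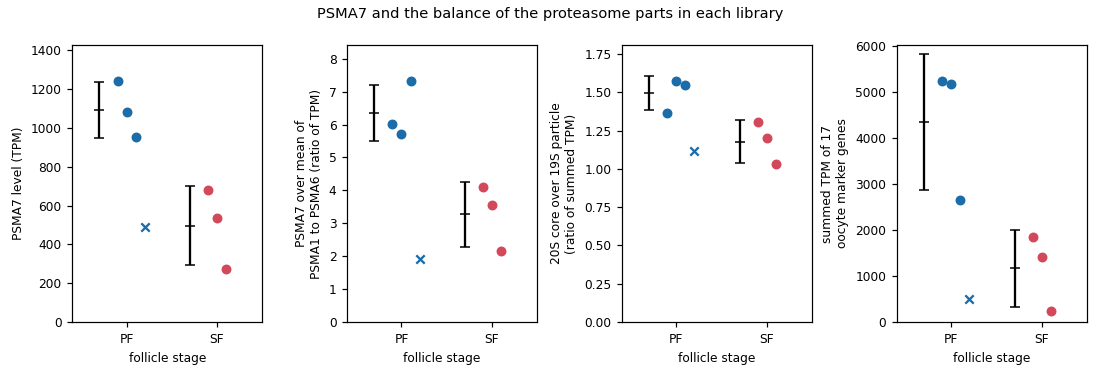
From left to right, the TPM of *PSMA7*, its ratio to the mean TPM of *PSMA1* to *PSMA6*, the ratio of the summed TPM of the core to that of the regulatory particle, and the summed TPM of 17 oocyte markers, in each library. Circles are PF replicates 1 to 3 (blue) and SF (red), the cross is PF replicate 4, and black bars are the mean ± SD of n = 3 libraries. In all panels the SF libraries and PF replicate 4 lie below PF replicates 1 to 3.

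None of the 7 constitutive beta genes was called. Their mean levels ran from 135 to 374 TPM. The cutting subunits were *PSMB6* (beta1, caspase-like activity), *PSMB7* (beta2, trypsin-like) and *PSMB5* (beta5, chymotrypsin-like). *PSMB5* was at 148, 171 and 87.3 TPM in PF replicates 1 to 3, 309 TPM in PF replicate 4 and 223, 182 and 178 TPM in SF, which is above PF replicates 1 to 3 without overlap. Its fold change did not pass (0.66 ± 0.31, DESeq2 adjusted p = 0.12), but did with the library number as a covariate (0.82, DESeq2 adjusted p = 0.013). With PF replicate 4 kept it was 0.15 (DESeq2 adjusted p = 0.90). *PSMB6* (322 ± 117 TPM in PF and 281 ± 56.4 TPM in SF, -0.04 ± 0.35, DESeq2 adjusted p = 0.95) and *PSMB7* (208 ± 50.4 and 208 ± 7.36 TPM, 0.14 ± 0.24, DESeq2 adjusted p = 0.74) overlapped between the groups. The highest beta gene was 2.54 to 3.11 times the lowest in PF replicates 1 to 3 and 1.62 to 1.70 times in SF, with 1.68 in PF replicate 4.

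The immune subunits were present but lower than their constitutive partners, and unequal among themselves. *PSMB9*, which replaces *PSMB6*, was at 131, 147 and 68.7 TPM in PF replicates 1 to 3, 32.8 TPM in PF replicate 4 and 208, 109 and 95.6 TPM in SF. *PSMB10*, which replaces *PSMB7*, was at 59.4, 67.3 and 60.5 TPM in PF replicates 1 to 3, 56.3 TPM in PF replicate 4 and 112, 61.3 and 51.7 TPM in SF. Both overlapped between the groups, SF replicate 1 was the highest library of each, and neither passed (0.40 ± 0.43 and 0.36 ± 0.41, DESeq2 adjusted p = 0.56 and 0.59). *PSMB8*, which replaces *PSMB5*, had counts in 3 libraries only, with 12.9 and 9.11 TPM in PF replicates 1 and 2 and 8.39 TPM in SF replicate 1. In the other 4 libraries it had 0 counts, which allows up to 0.217 to 0.241 TPM each by a floor of 3 counts. Its fit had no useful precision (-1.17 ± 2.62, DESeq2 adjusted p = 0.81). It passed as lower only without SF replicate 1 (DESeq2 adjusted p = 0.02), where both SF libraries left are at 0. *PSMB11*, the thymic subunit, had no count in any library, on 1 of its 3 listed transcripts.

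The balance of immune and constitutive subunits was compared within each library for the 3 catalytic positions. The log2 ratio of *PSMB9* to *PSMB6* was -1.48 ± 0.03 in PF replicates 1 to 3 and -1.10 ± 0.32 in SF (n = 3 each), and the difference of 0.37 reached the smallest p that an exact two-sided permutation test of 3 against 3 libraries allows (p = 0.1), so that it could not pass. As a share of the pair, *PSMB9* was 26.0% to 27.0% in PF replicates 1 to 3 and 28.8% to 37.6% in SF, and 6.78% in PF replicate 4. Without SF replicate 1 the difference was 0.19. With curated transcripts alone it was 0.37, and the groups overlapped (exact permutation p = 0.2, n = 3 each). For *PSMB10* to *PSMB7* the log2 ratio was -1.71 ± 0.36 in PF and -1.56 ± 0.61 in SF (difference 0.15, exact permutation p = 0.8, n = 3 each), and it turned to -0.20 without SF replicate 1 and to -0.0019 without PF replicate 1. The share of *PSMB8* with *PSMB5* was 8.04% at most, and its log2 ratio rests on an added 0.1 TPM where *PSMB8* is at 0 (difference -2.95, exact permutation p = 0.2, n = 3 each). *PSMB8*, *PSMB9* and *PSMB10* together made up 19.2% to 29.8% of the 6 catalytic transcripts in SF and 21.3% to 23.1% in PF replicates 1 to 3, against 7.97% in PF replicate 4.

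**Figure D4:**
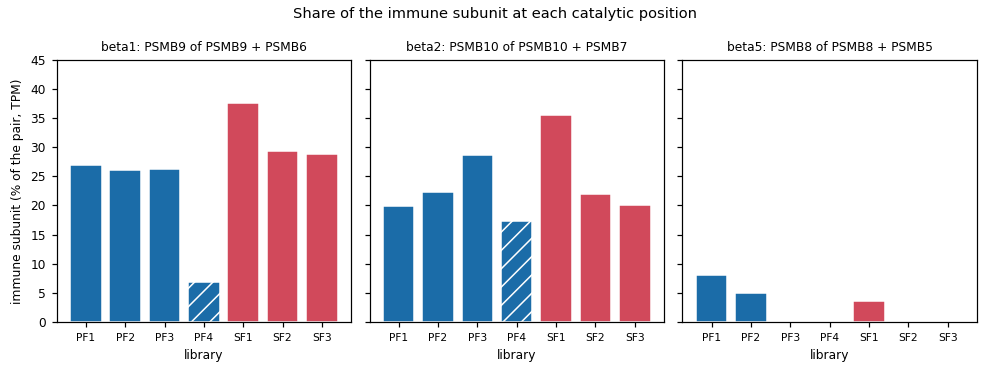
Share of the immune subunit in the TPM of the pair at each catalytic position, in percent, for each library (PF blue, PF replicate 4 hatched, SF red). At beta1 the SF libraries (28.8% to 37.6%) lie above PF replicates 1 to 3 (26.0% to 27.0%), at beta2 the groups overlap, and at beta5 4 libraries are at 0. With the curated transcript of *PSMB9* alone, the groups overlap at beta1 too.

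The immune subunits were set beside 19 genes of interferon response and antigen presentation. For comparison, 8.14% of all genes tested were called higher in SF and 11% lower, with a median log2 fold change of 0.02. Of the 15 genes of this list tested, 5 were called higher in SF, none lower and 10 did not pass, with a median of 0.77. Among them were the peptide trimming enzyme *ERAP1* (1.55 ± 0.41, DESeq2 adjusted p = 0.0024), the peptide loading factor tapasin, *TAPBP* (184 ± 15.0 TPM in PF and 336 ± 29.6 TPM in SF, 0.96 ± 0.27, DESeq2 adjusted p = 0.005), the kinase *JAK2* (1.76 ± 0.55, DESeq2 adjusted p = 0.012) and the antiviral *MX1* (1.59 ± 0.61, DESeq2 adjusted p = 0.047). With PF replicate 4 kept none of the 5 passed (DESeq2 adjusted p = 0.073 to 0.79), nor was any of them called in the edgeR and limma fits. Without PF replicate 1 or 2, *JAK2* (DESeq2 adjusted p = 0.081 and 0.081) and *MX1* (0.15 and 0.16) did not pass, nor did *MX1* without any 1 of the SF libraries (0.059 to 0.23), or *JAK2* without SF replicate 2 or 3 (0.062 and 0.096). With curated transcripts alone *ERAP1* did not pass (DESeq2 adjusted p = 0.55). Among the 10 genes that did not pass, *B2M*, *TAP2*, *IFNGR1* and *CXCL10* had fits below 0 (-0.87 to -0.51) and the rest above 0. *B2M* was at 445 ± 45.3 TPM in PF and 253 ± 63.4 TPM in SF. It lay lower in SF without overlap (-0.70 ± 0.29, DESeq2 adjusted p = 0.072). The peptide transporter gene *TAP1* had no count in any library on its 1 listed transcript. Transcripts with no matched gene held 9.71% to 10.7% of the counts, so a 0 for *TAP1* or *PSMB8* covers the listed transcript alone. The summed level of 9 immune cell markers was 41.1 to 89.2 TPM in PF replicates 1 to 3, 3.95 to 48.1 TPM in SF and 11.7 TPM in PF replicate 4, with *CD2* at 0 in all. Most of the PF sum was *CSF1R* (31.5 to 89.2 TPM in PF replicates 1 to 3 and 1.82 to 16.3 TPM in SF), which was called lower in SF. The other 8 markers summed to 0.0315 to 9.62 TPM in PF replicates 1 to 3, 4.28 TPM in PF replicate 4, and 36.5, 4.76 and 2.13 TPM in SF replicates 1 to 3. They were highest in SF replicate 1, as were *PSMB9* and *PSMB10*. Their part in the immune subunit levels was not tested.

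In the regulatory particle 3 of 17 genes (17.6%) were called higher and none lower. All 3 had SF levels above PF replicates 1 to 3 without overlap. Of all genes tested, 8.14% were called higher and 11% lower, and SF lay higher without overlap for 14.3%. *PSMD7*, the scaffold partner of the deubiquitinase, was at 130.4, 149 and 137 TPM in PF replicates 1 to 3 and 222, 229 and 252 TPM in SF, with 258 TPM in PF replicate 4. The fitted rise was 1.83-fold (0.87 ± 0.28, DESeq2 adjusted p = 0.016). This was lost on leaving out PF replicate 1 or 2 (DESeq2 adjusted p = 0.099 and 0.078) or on adding PF replicate 4 (0.53), with fits of 0.74, 0.87 and 0.50.

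*PSMC5*, an ATPase of the unfolding ring, was at 109, 106 and 80.4 TPM in PF replicates 1 to 3 and 151, 144 and 132 TPM in SF, with 243 TPM in PF replicate 4. The fitted rise was 1.57-fold (0.65 ± 0.22, DESeq2 adjusted p = 0.02). Omitting PF replicate 1 or 2 or SF replicate 1 or 2 took it past the threshold (DESeq2 adjusted p = 0.11, 0.086, 0.069 and 0.071), as did adding PF replicate 4 (0.94), where the fit dropped to 0.0981. In the other 4 fits it was 0.61 to 0.71.

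*PSMD13*, a subunit of the lid, was at 73.1, 111 and 74.0 TPM in PF replicates 1 to 3 and 159, 143 and 119.9 TPM in SF, with 129 TPM in PF replicate 4. The fitted rise was 1.75-fold (0.81 ± 0.31, DESeq2 adjusted p = 0.047). This call was the weakest, and ended without any of the 6 libraries except PF replicate 2 (DESeq2 adjusted p = 0.054 to 0.17), with PF replicate 4 kept (0.39) and with a minimum of 10 counts in 3 libraries (0.051). In PF replicate 4 all 3 genes stood above the other PF libraries.

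The other 5 ATPases, *PSMC1* to *PSMC4* and *PSMC6*, did not pass (-0.37 to 0.62), and their mean levels ran from 77.6 TPM for *PSMC6* in PF to 383 TPM for *PSMC3* in PF. *PSMC3*, the most abundant member after *PSMA7*, was at 383 ± 86.8 TPM in PF and 348 ± 66.2 TPM in SF (-0.01 ± 0.26). *PSMC2* (0.62 ± 0.29, DESeq2 adjusted p = 0.11) and *PSMC6* (0.62 ± 0.35, DESeq2 adjusted p = 0.2) had fits close to that of *PSMC5* but overlapped between the groups. Nor did the other 9 non-ATPase subunits pass (-0.62 to 0.35). The deubiquitinase *PSMD14*, which strips ubiquitin from substrates before they enter the barrel, was at 154, 116 and 95.6 TPM in PF replicates 1 to 3, 172 TPM in PF replicate 4 and 79.8, 99.2 and 123 TPM in SF (-0.13 ± 0.33, DESeq2 adjusted p = 0.84). *PSMD6* lay lower in SF without overlap (151 ± 62.6 TPM in PF and 88.6 ± 12.4 TPM in SF, -0.62 ± 0.34, DESeq2 adjusted p = 0.19). The lowest of the particle was the large scaffold subunit *PSMD1* at 46.0 ± 19.2 TPM in PF and 38.6 ± 1.44 TPM in SF.

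The summed level of the core over that of the regulatory particle was compared to see whether both parts moved together. It was 1.37, 1.57 and 1.55 in PF replicates 1 to 3 and 1.31, 1.20 and 1.03 in SF, with no overlap, and 1.12 in PF replicate 4. *PSMA7* made up 23.7% to 31.1% of the core sum in PF replicates 1 to 3 and 10.3% to 18.4% in SF. Without *PSMA7* the ratio was 1.09 ± 0.101 in PF and 0.998 ± 0.0706 in SF, and the groups overlapped. The median log2 fold change was -0.01 over the 14 core genes, 0.01 over the 17 genes of the regulatory particle and 0.36 over the 3 immune genes tested.

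Of the 3 assembly chaperones with *PSMD* symbols, which guide the base of the regulatory particle together, none passed. *PSMD9* was at 328, 295 and 121 TPM in PF replicates 1 to 3, 101 TPM in PF replicate 4 and 145, 119.7 and 70.7 TPM in SF (-1.0 ± 0.43, DESeq2 adjusted p = 0.086), a difference about as large as that of *PSMA7* with a wider spread. It passed without PF replicate 3 and without SF replicate 1. *PSMD10* (0.63 ± 0.33) lay higher in SF without overlap, and *PSMD5* was at 66.9 ± 22.7 TPM in PF and 66.0 ± 27.2 TPM in SF.

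All 4 activators, which open the barrel without the need for ubiquitin, had fits above 0 and none passed. *PSME1* and *PSME2* form the interferon-inducible activator. *PSME2* was at 60.1, 59.5 and 77.7 TPM in PF replicates 1 to 3, 117 TPM in PF replicate 4 and 143, 94.1 and 95.5 TPM in SF, without overlap (0.84 ± 0.39, DESeq2 adjusted p = 0.12), and it passed without PF replicate 3 (DESeq2 adjusted p = 0.016). *PSME1* was at 107, 116 and 70.8 TPM in PF replicates 1 to 3, 108 TPM in PF replicate 4 and 143, 114 and 155 TPM in SF, with overlap (0.64 ± 0.33, DESeq2 adjusted p = 0.16). The nuclear activator *PSME3* was lower, at 11.2 ± 1.10 TPM in PF and 14.5 ± 4.92 TPM in SF (0.47 ± 0.39, DESeq2 adjusted p = 0.43). *PSME4*, a large nuclear activator known from the exchange of histones in sperm cells, varied widely between libraries, with 0.133, 4.30 and 5.06 TPM in PF replicates 1 to 3, 9.29 TPM in PF replicate 4 and 1.17, 6.05 and 16.3 TPM in SF (1.39 ± 1.18, DESeq2 adjusted p = 0.44).

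Partners of the proteasome outside the family moved in both directions. Of 25 genes for assembly, regulation and delivery of substrates, 24 were tested. Of these 4 rose, 2 fell and 18 did not pass, with a median log2 fold change of 0.14. Among all genes tested 8.14% were called higher and 11% lower, with a median of 0.02. *NFE2L1*, the transcription factor that raises proteasome genes when proteasome activity is short, was at 53.9, 61.6 and 36.0 TPM in PF replicates 1 to 3, 65.8 TPM in PF replicate 4 and 99.9, 106 and 80.2 TPM in SF, and was called higher (1.04 ± 0.26, DESeq2 adjusted p = 0.0012). Its call held with each of the 6 libraries left out, but not once PF replicate 4 was added (DESeq2 adjusted p = 0.065). The segregase *VCP*, which extracts ubiquitin-tagged proteins, rose from 147 ± 14.7 to 329 ± 107 TPM (1.29 ± 0.38, DESeq2 adjusted p = 0.0066), as did the deubiquitinase *USP14* (1.33 ± 0.45, DESeq2 adjusted p = 0.022) and the ubiquitin ligase *UBE3A* (1.18 ± 0.38, DESeq2 adjusted p = 0.014). *PSMG1*, a chaperone of alpha ring assembly, fell from 462 ± 158 to 183 ± 61.0 TPM (-1.20 ± 0.36, DESeq2 adjusted p = 0.0086). The ubiquitin receptor *ADRM1* of the regulatory particle also fell, from 269.5 ± 63.5 to 141 ± 38.1 TPM (-0.82 ± 0.30, DESeq2 adjusted p = 0.032). Under the oocyte scaling, which moved the median of all genes to 2.62, *PSMG1* was at 1.24 and *ADRM1* at 1.64, both positive, without a call and below that median.

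With PF replicate 4 kept *ADRM1* was the only one of these 6 partners still called (DESeq2 adjusted p = 0.031), and the others were at 0.065 to 0.81. None of the 6 was called in any of the edgeR and limma fits. *ADRM1* did not pass on leaving out PF replicate 1 or 2 or SF replicate 2, or with TMM factors (DESeq2 adjusted p = 0.13, 0.14, 0.11 and 0.063). The call of *PSMG1* was lost on leaving out PF replicate 1 or SF replicate 2 (0.069 and 0.065), that of *VCP* without PF replicate 2 (0.065), that of *UBE3A* on omission of PF replicate 2, PF replicate 3 or SF replicate 2 (0.084, 0.051 and 0.061) or with curated transcripts alone (0.96), and that of *USP14* on omission of PF replicate 1, PF replicate 2, SF replicate 2 or SF replicate 3 (0.079, 0.13, 0.085 and 0.098).

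PF replicate 3 held low levels of many members. It was the lowest of PF replicates 1 to 3 for 32 of the 41 members above 1 TPM on average. Within library numbers below 40, where PF replicates 1 and 2 were set against SF replicate 1, 24 of 40 members (60%) were lower in SF. The share over all genes tested was 57.7%. Within those above 40, where PF replicate 3 was set against SF replicates 2 and 3, 34 of 40 (85%) were higher in SF. Here the share over all genes tested was 56.0%. Directions agreed between the sets for 20 of the 40 members, 15 higher and 5 lower, and for 67.8% of all genes tested. *PSMA7*, *PSMC5*, *PSMD7* and *PSMD13* each kept their direction in both sets.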

How the data were processed

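Per the labels and the study's methods, cDNA was amplified with SMART-Seq v4, which does not mark strand, and reads were trimmed and quantified per RefSeq transcript of the ARS-UCD1.3 build with Salmon. The authors deposited for each library an estimated count, a TPM and an effective length per transcript. Of 76123 transcripts, 50205 (66.0%) were matched by accession, without its version, to 23704 genes of an ARS-UCD2.0 table used for names only, so no coordinates are given. Unmatched transcripts held 9.71% to 10.7% of the counts and were left out. Of the 63 transcripts listed for the members 56 were matched, and for 38 of 43 members all of them. Without molecular identifiers, the floors hold for counting error alone. Libraries within a group were not duplicates of each other (chi-square per degree of freedom 97.8 to 628).

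Counts were summed per gene, rounded and tested with DESeq2 1.42.0 in R 4.3.3 (Wald test, median-of-ratios size factors, Benjamini-Hochberg adjusted p below 0.05 over all genes). PF replicate 4 was left out as in the study, where it stood apart from the other PF libraries in a principal component analysis. Alternatives were edgeR 4.0.16 (plain and robust), limma 3.58.1 on log-transformed TPM (log2, 1 or 0.1 added) with and without a filter of 1 TPM in 3 libraries, TMM factors, a transcript length offset, size factors from 17 oocyte markers, a filter of 10 counts in 3 libraries, all 7 libraries, the replicate block, the library number as a covariate, curated transcripts, adjusted p below 0.01 and each library left out. On simulated counts the test called most genes with a large set change and few with a 2-fold change. Intervals are the fit ± 1.96 SE. Ratios within a library used log2 of TPM + 0.1 and exact permutation tests (scipy 1.17.1).

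The members and lists were chosen with earlier results of these data known. Named were members with a call, the catalytic, immune and germ cell subunits, *PSMD14*, the activators, the members of highest and lowest level and fold change, and called genes of both lists, 1 of which is not reported here. *PSMA1* to *PSMA3*, *PSMC2*, *PSMC3*, *PSMC6*, *PSMD1*, *PSMD5*, *PSMD6*, *PSMD9* and *PSMD10* were named after their values were seen, as were the ratios with and without *PSMA7*, the immune markers without *CSF1R* and the order of libraries. So were the interferon list genes without a call and the single cell type markers.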

Additional observations from a re-analysis of the deposited data

Results flagged for a closer look

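Among the 4 PF libraries, a single library lay far from the other 3 for 6 of 45 quantities tested, where chance alone flags about 5% of such groups. PF replicate 3 was the low library for *PSMC1* (173 TPM, a gap of 0.92 of the group's range), *PSMC4* (71.0 TPM, 0.848), *PSMD5* (40.8 TPM, 0.932) and *PSME1* (70.8 TPM, 0.849). PF replicate 4 was the high library for *PSME3* (29.1 TPM, 0.839) and the low library for the immune share of the 6 catalytic transcripts (7.97%, 0.883). The groups of SF, with 3 libraries, were not tested in this way.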

How the results depend on the processing

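Against 3 members higher and 1 lower in SF, the counts were 0 and 0 with both edgeR fits, the 3 limma fits, PF replicate 4 kept and adjusted p below 0.01. TMM factors gave 3 higher and 0 lower, and size factors from the oocyte markers 38 higher and 0 lower, with 57.1% of all genes higher and the median of all genes at 2.62. Under that scaling the medians of the core, regulatory and immune genes were 2.61, 2.69 and 2.78. Many members with a main fit below 0 turned positive there. Among them were *PSMA7*, *PSMB6*, *PSMB8*, *PSMC3* and *PSMD14* (1.27, 2.58, 0.83, 2.56 and 2.69), which lay below the median of all genes apart from *PSMD14*. With a library left out, 0 to 3 members were higher and 0 to 3 lower. With the replicate block, 3 were higher and 2 lower, and 4077 genes in all were called against 2876. *PSMC5* lost its call there (DESeq2 adjusted p = 0.059), while *PSME4* and *PSMD9* gained one. The numbers are not known to pair the samples. Correlations of deviations were 0.26, -0.04 and 0.40 for same-numbered libraries and -0.43 to 0.27 for the other pairings of PF with SF. The difference of the *PSMB9* to *PSMB6* ratio was 0.95 with PF replicate 4 kept and 0.74 within library numbers below 40. That of *PSMB10* to *PSMB7* was 1.04 below 40 and -0.60 above 40. Calls over all genes ran from 0 with edgeR to 9352 with the oocyte scaling. The causes of these changes were not tested. With 3 libraries a group, the standard error of a member's fold change was 0.33 at the median on the log2 scale.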

Other observations

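Most members were measured on a single RefSeq model, but a few divided their reads between models. For *PSMC1*, the predicted model held 56.6% to 68.3% of the gene's TPM, and the curated model the rest. For *PSMD10*, the longer predicted model held 45.7% of the TPM in PF replicate 1, 58.0% in SF replicate 1 and 71.4% to 82.6% in the other 5 libraries. For *PSMB10*, the curated model held 58.6% to 86.4%, and for *PSMB9* it held 83.5% to 95.1%. Salmon estimates how reads divide between models, and no test of these shares was made.

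Some members lie next to each other in the gene table. *PSMB11* and *PSMB5* are direct neighbours, and *PSMB5* was present in all libraries while *PSMB11* had no count. *PSME2* and *PSME1* are separated by *EMC9* alone, and *PSMB8* and *PSMB9* by *TAP1* alone. In this last stretch *PSMB9* had 268 to 2122 estimated counts per library over its 2 listed transcripts. *PSMB8* had counts in 3 libraries and *TAP1* in none, each on its 1 listed transcript. Reads on transcripts without a matched gene are not covered by these counts.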
